A study of Homo sapiens with 7 samples.

Results

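MicroRNA names carry the number under which a hairpin was entered in the public registry, so a high number means a late entry. The microRNAs numbered 5000 and above were taken from the table of captured microRNAs by the number that follows miR- in the mature name. They came to 67 of the 480 mature names. miR-5095 and miR-7641 were left out by the same rule. The rule itself goes by number, but it was set with earlier results of these data known. Every listed name had reads in these libraries, so names without reads could not become members. All 7 libraries come from A375, an established human melanoma cell line. The cells were crosslinked with 1% formaldehyde for 10 min after 24 h in culture and taken through miR-CATCHv2.0, which pulls down an mRNA with probes and recovers the microRNAs held with it. The ODD and EVEN probe sets (3 captures each) are directed at the 3′UTR of the X1 isoform of the BRAF kinase mRNA and are called X1 probes together, while 1 control capture used scrambled probes. Line, growth, crosslinking and protocol were the same in the labels of all 3 groups. The ODD and EVEN captures were described as independent, but nothing says whether they came from separate cultures, so p-values measure the spread between these captures.

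A typical microRNA is cut from a long primary transcript by Drosha and Dicer, and one arm of its hairpin, -5p or -3p, is usually kept in an Argonaute protein. A mirtron is made differently: a short intron is spliced out, linearised and folded into a hairpin, which Dicer cuts with no need for Drosha. The ends of such a hairpin are the ends of the intron, and introns close with an AG at the 3′ splice site. Bases 2 to 8 of a mature microRNA form its seed, the stretch that pairs with a target mRNA. Many late entries were found by deep sequencing at low read numbers, and a consecutive run of them, here miR-6715 to miR-6895, holds many mirtron candidates.

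RefSeq's table (GRCh38.p14) held the mature sequence of 57 of the 67 names. The sequences of the strongest members are shown first because a handful of names carried most of the reads. Seeds are in capitals.
miR-7704: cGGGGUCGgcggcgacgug
miR-5701: uUAUUGUCacguucugauu
miR-7977: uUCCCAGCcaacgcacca
miR-6772-5p: uGGGUGUAggcuggagcugagg
miR-7706: uGAAGCGCcugugcucugccgaga
miR-6724-5p: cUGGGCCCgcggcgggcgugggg
miR-5585-3p: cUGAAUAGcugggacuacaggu
miR-5684: aACUCUAGccugagcaacag
miR-6802-5p: cUAGGUGGggggcuugaagc

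miR-5096 and miR-6087, which also belong to the strongest, are given by name. The strongest of all, miR-7704, lies at chr2:176188843-176188861 on the plus strand, within the span of the homeobox gene HOXD1. miR-5701 has 3 loci, the first of them at chr15:20940261-20940279 on the plus strand. miR-7977 lies at chr3:176515103-176515120 on the plus strand. The first miR-5701 locus and the miR-7977 locus are outside any protein-coding gene span. miR-6772-5p lies at chr16:57772326-57772347 on the minus strand, within the span of the kinesin gene KIFC3. The spans come from gene starts and ends, so exon and intron were not told apart. For names with several loci only the first was looked up. The 57 sequences held 56 different seeds. Only miR-6511a-3p and miR-6511b-3p, from near-identical hairpins, shared one. Base composition also set the leading names apart from each other: guanine and cytosine made up 84.2% of miR-7704 and 31.6% of miR-5701.

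The -3p sequences from the run miR-6715 to miR-6895 shared an ending. Of its 16 matched -3p names, 13 (81.2%) ended in AG and 12 (75.0%) in CAG. Among the -3p names numbered under 5000 in the same table, 7 of 132 (5.30%) ended in AG and 3 (2.27%) in CAG. All RefSeq -3p names from the same run gave 74.8% for AG, and all RefSeq -3p names of any number 22.6%. The endings were read on the mature strand only, and CAG is a part of AG. These examples show the ending, with the last 2 bases in capitals and the seed not marked.
miR-6756-3p: uccccuuccucccugcccAG
miR-6827-3p: accgucucuucuguuccccAG
miR-6805-3p: uugcucugcucccccgcccccAG
miR-6777-3p: uccacucuccuggcccccAG
miR-6828-3p: aucugcucucuuguucccAG

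miR-6756-3p lies at chr11:119312950-119312969 on the minus strand, within the span of MCAM, the gene of the melanoma cell adhesion molecule. miR-6805-3p lies within RPL28, a ribosomal protein gene, miR-6777-3p within SREBF1, a regulator of lipid synthesis, and miR-6827-3p within AMOTL2. In the whole run, 31 of 33 matched names (93.9%) lay inside a protein-coding gene span on either strand, by the first locus of each. For the other matched members the count was 16 of 24 (66.7%), and for the names numbered under 5000 it was 209 of 349 (59.9%).

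The arms of the late entries had opposite base compositions. Guanine made up 49.6% ± 8.69 of the bases of the -5p members (SD over 22 sequences) and 16.2% ± 7.87 of the -3p members (SD over 21 sequences). Cytosine went the other way, with 15.6% ± 8.69 on -5p and 44.7% ± 12.1 on -3p. Names numbered under 5000 had 29.8% ± 11.0 guanine on -5p (SD over 133 sequences) and 24.6% ± 9.67 on -3p (SD over 132 sequences). These are descriptions of the names found in the table, not tests.

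**Figure D1:**
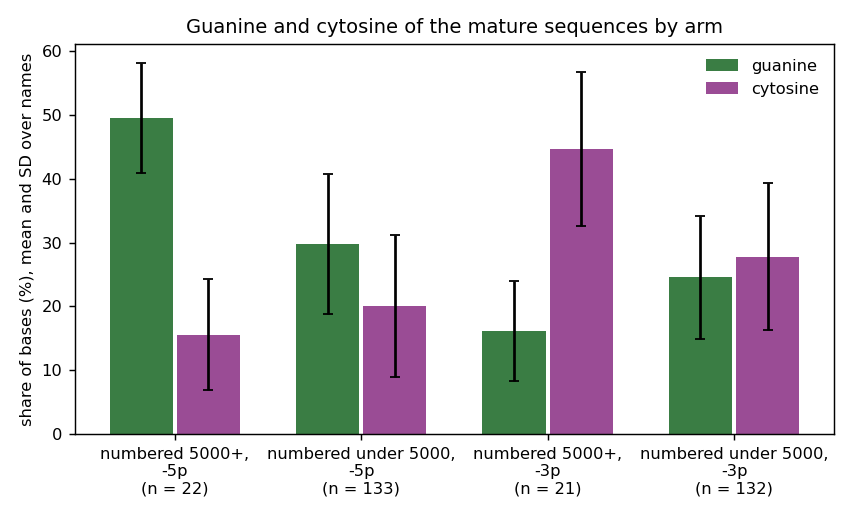
Share of guanine and cytosine among the bases of the mature sequences (%), as the mean over names with bars of 1 SD, for -5p and -3p names numbered 5000 and above and under 5000. Guanine leads on the late -5p arms (49.6%) and cytosine on the late -3p arms (44.7%), while the earlier names have 29.8% guanine on -5p and 27.8% cytosine on -3p.

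Depth limits what can be seen of such low entries. Counted over all rows, X1-probe captures came to 4049 to 35508 reads, and the scrambled capture to 4647. One read was worth 28.2 RPM (reads per 1000000 reads of the library) in the deepest library, ODD replicate 2, and 247 RPM in the shallowest, ODD replicate 3. The cell line label was checked against 6 microRNAs linked to pigment cells or melanoma, of which 5 were among the names. Their summed level was 30216 to 41492 RPM over the X1-probe libraries and 40026 RPM with scrambled probes. The largest parts were miR-222-3p and miR-221-3p, with means of 17169 and 9132 RPM with X1 probes, against 2286 RPM for miR-204-5p. miR-211-5p, a pigment-cell microRNA, was not among the 480 names. These are shares of captured microRNAs, not levels in whole cells, so they do not settle the label. Summed levels of other cell types' markers were far lower, at 0 to 629 RPM for blood (5 of 7 markers listed), 108 to 494 RPM for epithelium (3 of 6), 84.5 to 741 RPM for muscle (2 of 4) and 92.4 to 494 RPM for neurons (2 of 3). With scrambled probes these were 215, 0, 646 and 1291 RPM. The liver marker miR-122-5p was not listed. The part of other cells in the results was not tested.

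The late entries made up 14.0% of the mature names and 1.55% of the reads (1 row per name). Their summed share of the RPM total was 1.23% in ODD replicate 1 (133 reads, exact Clopper-Pearson 95% interval 1.03 to 1.45), 1.05% in ODD replicate 2 (372 reads, 0.944 to 1.16) and 1.23% in ODD replicate 3 (50 reads, 0.918 to 1.62). It was 0.85% in EVEN replicate 1 (79 reads, 0.674 to 1.06), 1.23% in EVEN replicate 2 (178 reads, 1.06 to 1.42) and 1.41% in EVEN replicate 3 (67 reads, 1.09 to 1.78). The scrambled library had 1.36% (63 reads, 1.04 to 1.73). The scrambled value lay inside the range of the EVEN libraries, EVEN replicate 1 was the lowest, and ODD and EVEN overlapped.

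The group means were 1.17% ± 0.106 for ODD and 1.16% ± 0.284 for EVEN (SD, n = 3 each), which differ by less than either SD. All read-based intervals here describe counting alone, because PCR copies of a molecule were not marked. By number, the share with X1 probes was 0.435% ± 0.0385 for names from 5000 to under 6000, 0.290% ± 0.0888 from there to under 7000 and 0.438% ± 0.0862 from there to under 8000 (SD, n = 6), against 0.560%, 0.366% and 0.430% with scrambled probes. The 3 names from 8000 on had 1 read each. The run miR-6715 to miR-6895 held 37 of the 67 names and 93 of their 942 reads, or 0.130% ± 0.0513 of the RPM total with X1 probes (SD, n = 6) and 0.129% with scrambled probes.

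**Figure D2:**
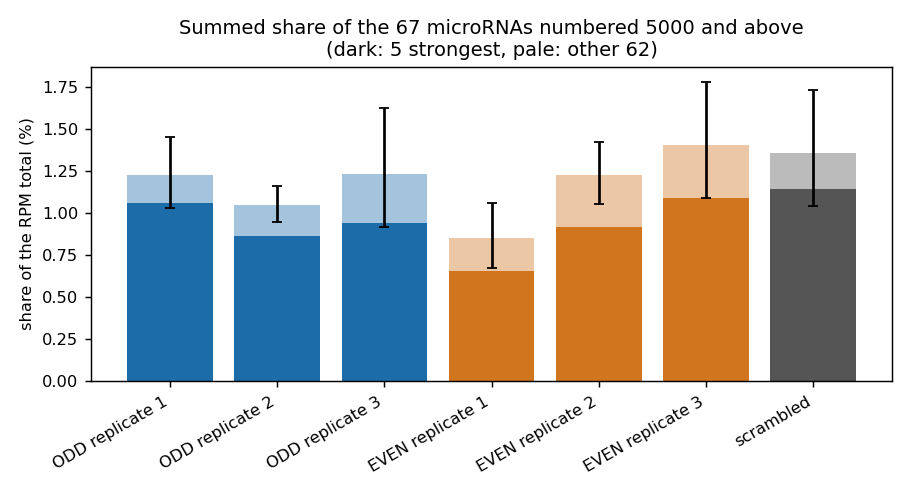
Summed share of the RPM total (%) for the 67 microRNAs in each library, with the 5 strongest in the dark part of a bar and the other 62 in the pale part. Black bars are exact 95% intervals of the whole share from read counts, and the libraries run from 0.85% (EVEN replicate 1) to 1.41% (EVEN replicate 3), with scrambled at 1.36%.

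A set of 5 names held 759 of the 942 reads (80.6%): miR-7704, miR-5096, miR-6087, miR-5701 and miR-7977. These were also the only members with reads in all 7 libraries. Their part of the member reads was 81.7% ± 5.29 with ODD and 76.5% ± 1.57 with EVEN probes (SD, n = 3 each) and 84.1% with scrambled probes (exact 95% interval 72.7 to 92.1). The other 62 names shared 183 reads. Among all 480 names, miR-7704 stood at rank 36 by mean RPM and miR-7977 at rank 103.

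miR-7704 led in 5 libraries, miR-5096 led in the scrambled library, and both had 23 reads in EVEN replicate 1. With ODD probes miR-7704 had 3881, 3380 and 3458 RPM in replicates 1 to 3, and with EVEN probes 2475, 4002 and 3986 RPM. The scrambled library had 3873 RPM (18 reads, exact 95% interval 2297 to 6115). The scrambled value fell inside the range of the X1-probe libraries, and EVEN replicate 1 was the low one.

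miR-5096 had 2957, 2056 and 2964 RPM with ODD probes and 2475, 2553 and 3147 RPM with EVEN probes. It reached 4089 RPM with scrambled probes (19 reads, exact 95% interval 2463 to 6378). All 6 X1-probe libraries lay below the scrambled one, 5 of them inside its counting interval.

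miR-6087 was more uneven. ODD replicates 1 to 3 had 2403, 986 and 1482 RPM, EVEN replicates 646, 828 and 2098 RPM, and the scrambled library 2367 RPM (11 reads, exact 95% interval 1182 to 4231). The high libraries were ODD replicate 1, EVEN replicate 3 and scrambled, so the groups overlapped.

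miR-5701 had 832, 1436 and 1235 RPM with ODD probes, 753, 1311 and 1259 RPM with EVEN probes, and 861 RPM with scrambled probes (4 reads, exact 95% interval 235 to 2202). Replicate 1 was the low library of both probe sets. miR-7977 had 554, 789 and 247 RPM with ODD probes, 215, 483 and 420 RPM with EVEN probes, and 215 RPM with scrambled probes, where it rested on 1 read. Its mature sequence closes with CCA, as does that of miR-7975, which had 5 reads in 4 libraries. These were the 2 names of the 57 with that ending, against 4 of 349 under 5000 (1.15%) and 1.90% of all RefSeq mature names. In the following lines the last 3 bases are in capitals to show it.
miR-7977: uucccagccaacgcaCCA
miR-7975: auccuagucacggcaCCA

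**Figure D3:**
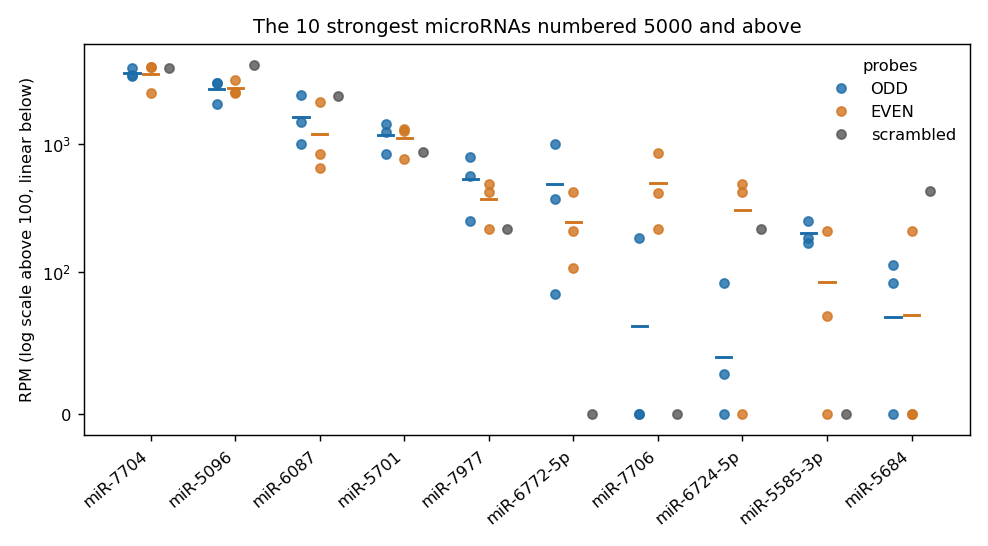
RPM of the 10 strongest microRNAs numbered 5000 and above (log scale above 100 RPM, linear below), with a point for each library and a line at the mean of the 3 ODD or 3 EVEN libraries. The first 5 names have reads in all 7 libraries, whereas miR-6772-5p, miR-7706 and miR-5585-3p are at 0 in the scrambled library.

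Detection followed depth. The ODD captures showed 17, 37 and 12 of the 67 names, the EVEN captures 20, 26 and 15, and the scrambled capture 13. The order of the X1-probe libraries by names was not exactly their order by depth, since EVEN replicate 1 showed 20 names from 6595 reads and ODD replicate 1 showed 17 from 7848. At a common depth of 3046 reads, the number expected from the reads was 10.8, 11.7 and 12 for ODD and 12.3, 14.4 and 14.0 for EVEN replicates 1 to 3, and 12.1 for the scrambled library. All EVEN libraries then lay above all ODD libraries, with means of 13.6 ± 1.09 and 11.5 ± 0.638 (SD, n = 3 each). For the 411 names under 5000 the probe sets overlapped and the means ran the other way, at 171 ± 11.4 with ODD and 162 ± 6.26 with EVEN probes (SD, n = 3 each). Counting only names with 2 or more reads, with no common depth, the late entries averaged 11.7 with ODD and 10.3 with EVEN probes. No test was made of this count, because it is a score over the chosen names.

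**Figure D4:**
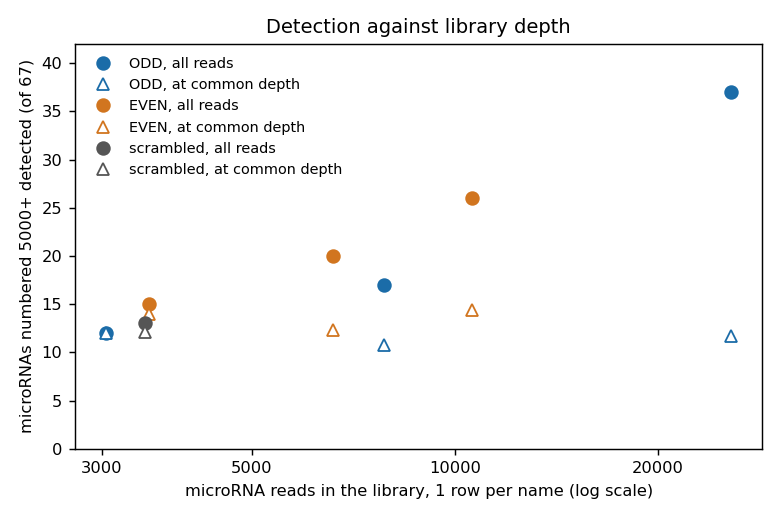
Number of the 67 microRNAs detected in each library against its reads (1 row per name, log scale). Filled circles use all reads and run from 12 to 37, and open triangles give the number expected at 3046 reads, which runs from 10.8 to 14.4.

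Most names were rare. Of the 67, 39 (58.2%) had reads in a single library and 32 (47.8%) had 1 read in all 7 libraries together, against 31.9% and 23.8% of the 411 names numbered under 5000. For the 88 names numbered from 3000 to under 5000 these shares were 47.7% and 34.1%. In the run miR-6715 to miR-6895 they were 70.3% and 56.8%, and none of its 37 names had reads in all 7 libraries. The deepest library alone accounted for 16 of the 39. The scrambled library alone showed miR-6830-5p and miR-5010-5p, with 1 read each.

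Arm use among the late entries was recorded on few reads. The names comprised 25 ending in -5p, 23 in -3p and 19 with no arm, and the names with no arm held 87.0% of the reads, because the 5 strongest are all of that kind. Under 5000, names with no arm held 5.59%, but they held 76.4% for the 88 names from 3000 to under 5000. They held 52.0% for a list of 98 names that starts at number 500 and stays below 3000. A large share with no arm was thus not limited to the late entries. Of the 122 late-entry reads with an arm, 73 were -5p, a share of 59.8% (exact 95% interval 50.6 to 68.6). For names under 5000 the share was 54.9% (54.4 to 55.3). It was 28.4% (23.8 to 33.3) for the names from 3000 to under 5000 and 69.2% (66.6 to 71.7) for the list starting at 500. The share thus varied widely with the number range, and the late share lay between these lists.

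Within the run miR-6715 to miR-6895 the -5p share was 66.7% of 93 reads (exact 95% interval 56.1 to 76.1). Of its 62 -5p reads, 17 were miR-6772-5p, and counted by names the -5p share was 54.1%. The interval is over reads, so it does not describe an arm bias across the names of the run. Over all 67 names, the mean of the X1-probe libraries was 58.5% ± 17.6 (SD, n = 6), and 48.1% without miR-6772-5p, an alternative added after seeing the data. By library the share over all 67 ran from 36.4% (EVEN replicate 1, 11 reads) to 87.5% (ODD replicate 3, 8 reads), and it was 71.4% in the scrambled library (7 reads, exact 95% interval 29.0 to 96.3). Both arms were found for 5 hairpins: miR-6772 (17 -5p reads and 1 -3p read), miR-6511a (4 and 2), miR-6511b (4 and 1), miR-5001 and miR-6738 (1 and 1 each). Of the 48 names with an arm, 20.8% had their other arm in the table, against 48.8% of the 303 under 5000.

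The -5p names of miR-6511a and miR-6511b had the same read numbers in every library. Their mature sequences share a run of 21 bases, in capitals here, so reads of one could be counted for the other.
miR-6511a-5p: CAGGCAGAAGUGGGGCUGACAgg
miR-6511b-5p: cugCAGGCAGAAGUGGGGCUGACA

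The comparison with scrambled probes asks which microRNAs the X1 probes brought down beyond background. None of the 15 late entries that could be tested passed in either direction, whereas 2 of all 242 tested names were higher (0.826%) and none was lower (0.0%). Testing required 10 RPM or more in 3 or more libraries, which 52 of the 67 did not reach. The tested names held 859 of the 942 reads. The test was limma on log2(RPM + 10), two-sided, with Benjamini-Hochberg adjustment over all 242 names at 0.05. Adjusted p for the 15 ran from 0.395 to 0.836, and unadjusted p was under 0.05 for 1 that was higher (17 of all 242) and 0 that were lower (4 of 242).

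The lowest p belonged to miR-6772-5p, a G-rich arm from the KIFC3 span. Its reads numbered 4, 3 and 4 in the ODD captures, 1, 3 and 2 in the EVEN captures, and 0 under scrambled probes. In RPM these were 370, 84.5 and 988 for ODD and 108, 207 and 420 for EVEN. All 6 X1-probe libraries had it, with ODD replicate 3 the highest. It met the filter for testing only through these libraries, so its difference and p give no support. The log2 difference was 4.76 (limma, SE 1.88, adjusted p = 0.395), but the X1-probe mean of 363 RPM lies under the scrambled floor of 3 reads, 646 RPM, so no fold is given. The pooled X1-probe reads correspond to 1.00 read at the scrambled depth.

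Of the 15, 8 had 0 scrambled reads, and all 8 had fitted differences above 0 whose size follows the pseudocount. These 8 met the filter only through X1-probe libraries, so their differences and p give no support. Under that filter a name with reads in the scrambled library alone could not be tested. Their X1-probe means were 363 RPM at most, all under the floor. Among the 7 measured on both sides, 5 had values below 0 and 2 above 0. The median fitted difference of the 15 was 1.94, against 0.096 for all 242 names, and it was 0 for both lists with names at 0 scrambled reads set to their bound. That bound is 0 for names under the floor, so the equal medians follow from the setting and compare nothing. Names with 0 scrambled reads made up 53.3% of the 15 and 31.8% of the 242.

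For the 5 strongest names the difference in RPM was bounded more closely, given here with the 95% interval or the SE. miR-7704 differed by -0.15 on the log2 scale (-0.99 to 0.68), a difference whose sign turned under quantile scaling. miR-5096 differed by -0.62 (SE 0.43) and miR-6087 by -0.91 (-2.17 to 0.36). miR-5701 differed by 0.36 (-0.94 to 1.65) and miR-7977 by 0.90 (-1.41 to 3.21). None of these passed by limma. The scrambled group is 1 library, so its spread was taken from the other groups, and RPM shows shares, not the amount captured.

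By order alone, 2 of the 15 (13.3%) had all X1-probe libraries above the scrambled one, against 11.2% of the 242 names. These were miR-6772-5p, which met the filter only through the X1-probe libraries, and miR-7977. For the latter it was 215.24 RPM in EVEN replicate 1 (2 reads) against 215.19 RPM with scrambled probes (1 read). In the other direction 2 (13.3%) had all X1-probe libraries below, against 22.7% of the 242. These were miR-5096 and miR-5684. miR-5684 had 1, 4 and 0 reads with ODD probes, 0, 0 and 1 with EVEN probes and 2 with scrambled probes (limma, log2 difference -3.56, SE 2.52, adjusted p = 0.673).

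**Figure D5:**
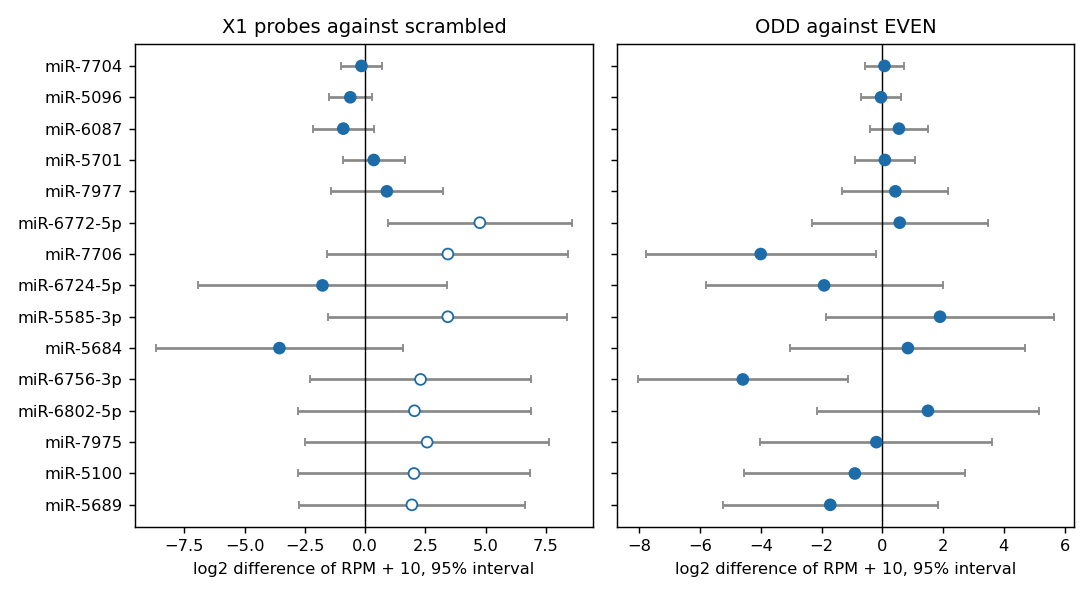
Log2 differences of RPM + 10 with 95% limma intervals for the 15 tested microRNAs numbered 5000 and above, for X1 probes against scrambled (left) and ODD against EVEN (right). Open circles mark the 8 names with 0 scrambled reads, and none of the 15 passed in either comparison.

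The ODD and EVEN sets target the same transcript and were set against each other. None of the 15 passed, against 0 of 242 names higher (0.0%) and 1 lower (0.413%) with ODD probes. Adjusted p by limma ran from 0.883 to 0.982, and unadjusted p was under 0.05 for 0 that were higher (5 of 242) and 2 that were lower (6 of 242). The median difference of the 15 was 0.066, against 0.072 for all 242.

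miR-6756-3p, from the MCAM span, had 0 reads in all 3 ODD libraries and 2, 4 and 1 reads in EVEN replicates 1 to 3. That is 215, 276 and 210 RPM, with 0 in the scrambled library. It met the filter for testing only through these EVEN libraries, so its difference and p give no support. The deepest library, an ODD capture, also had none. The log2 difference was -4.60 (limma, SE 1.70, adjusted p = 0.883), and of 14 alternatives it passed only without the eBayes trend (adjusted p = 0.00617, range over them 0.00617 to 0.998). The whole difference rests on 7 reads, and 3 reads, the floor per library, are 277, 84.5 and 741 RPM in the ODD libraries, so no fold is given.

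miR-7706, from the AKAP13 span, had 2, 0 and 0 reads with ODD probes and 2, 6 and 4 with EVEN probes, and 0 with scrambled probes. In RPM this was 185, 0 and 0 against 215, 414 and 839, so the lowest EVEN library was just above the highest ODD library (limma, log2 difference -4.01, SE 1.86, adjusted p = 0.909). The size follows the pseudocount, from -6.21 with 1 RPM to -1.21 with 250 RPM, and the ODD values lie under the floor of 3 reads in each library, so no fold is given. These 2 names (13.3% of the 15) were the ones with all ODD below all EVEN libraries, against 3.31% of the 242. Because miR-6756-3p met the filter only through the EVEN libraries, its place here was fixed once it was tested. How many of the 242 names met the filter in that way was not counted. No late entry had all ODD above all EVEN libraries, against 3.72% of the 242.

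The strongest names gave the narrowest bounds between the probe sets. miR-7704 averaged 3573 ± 270 RPM in ODD and 3488 ± 877 RPM in EVEN captures (SD, n = 3 each), a log2 difference of 0.066 (95% interval -0.56 to 0.70). miR-5096 had 2659 ± 522 against 2725 ± 367 RPM, a log2 difference of -0.047 (-0.71 to 0.62). miR-5701 had 1168 ± 308 against 1108 ± 308 RPM, a log2 difference of 0.081 (-0.90 to 1.06). Single libraries turned these 3 signs: miR-7704 was at -0.16 without EVEN replicate 1, miR-5096 at 0.13 without ODD replicate 2 and 0.060 without EVEN replicate 3, and miR-5701 at -0.085 without ODD replicate 2 and -0.17 without EVEN replicate 1. miR-6087 had 1623 ± 719 against 1191 ± 791 RPM, a log2 difference of 0.54 (SE 0.47) that was lowest without EVEN replicate 1 (0.20) and highest without EVEN replicate 3 (1.05). It was 0.21 without ODD replicate 1 and 0.85 without ODD replicate 2. miR-7977 had 530 ± 272 against 373 ± 140 RPM, a log2 difference of 0.43 (-1.32 to 2.17). That value was 0.071 without ODD replicate 2, 0.083 without EVEN replicate 1, 0.89 without ODD replicate 3 and 0.65 without EVEN replicate 2.

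The other tested names stayed at few reads and wide intervals. miR-6724-5p, whose first RefSeq locus is on chromosome 21, had 1, 1 and 0 reads with ODD probes, 0, 7 and 2 with EVEN probes and 1 with scrambled probes. miR-5585-3p had 2, 6 and 1 reads with ODD probes, 0, 1 and 1 with EVEN probes and 0 with scrambled probes. miR-6802-5p, from the PPP6R1 span, had 0, 2 and 2 against 0, 2 and 0 reads, and miR-5100 had 0, 9 and 0 against 1, 2 and 0. Its libraries with reads were ODD replicate 2, the deepest, and EVEN replicates 1 and 2. miR-5689 and miR-7975 had 8 and 5 reads in all. Among names that could not be tested, none had more than 5 reads, and miR-6716-3p had 2 of its 3 in the scrambled library.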

How the data were processed

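Small RNA of 7 captures was analysed. The deposited table gives 498 hairpin and mature rows in RPM (reads per library total, times 1000000), a normalized value whose unit is entered as other because of its decimal commas. CASAVA 1.8 and cutadapt 1.2.1 were used per the submitters' processing notes; the sources used here do not name an aligner, counting rule, annotation or build. Each column summed to 1000000, and all values were whole multiples of 1 read at a tolerance of 1e-06 reads, which gave the reads. For each mature name its highest row was used. Python 3.11.15, scipy 1.17.1, R 4.3.3 and limma 3.58.1 were used. The fit had a mean per group, a pseudocount of 10 RPM, eBayes with a trend, 4 residual and 28.6 prior degrees of freedom. A check on simulated data covered ODD against EVEN only, with counting spread and no further spread between captures. The comparison with scrambled probes was not simulated. Expected detection at 3046 reads used the hypergeometric formula. Groups came from the sample titles. Members and lists were chosen with earlier results of these data known. Names were given for the 10 strongest, the 3 strongest of each library, those seen in all 7, up to 5 per direction whose groups did not overlap, any that passed, miR-6772-5p, those of the scrambled library alone and the 3 arm pairs with the most reads; miR-5100, miR-5689, miR-6716-3p, miR-6802-5p, miR-7975 and the examples of sequence features were chosen after their values were seen.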

Additional observations from a re-analysis of the deposited data

Results flagged for a closer look

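Of 15 quantities checked for a library that stands far from the rest of the 6 X1-probe libraries, 2 stood out. The cutoff is meant to give about 1 in 20 by chance for normal values of equal spread. Values of a few reads at unequal depths are not of that kind, so no chance rate is given. Both came from ODD replicate 3, the shallowest library. miR-6772-5p had 988 RPM there, and the next library 420 RPM. miR-6802-5p had 494 RPM there, and the next library 138 RPM. These values are 4 and 2 reads. ODD replicate 1 also had 4 reads of miR-6772-5p, and ODD replicate 2 and EVEN replicate 2 also had 2 reads each of miR-6802-5p. The part of depth in the 2 high values was not tested.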

How the results depend on the processing

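With X1 probes against scrambled, the 2 names called higher among all tested became 0 with pseudocount 250 and 1 with quantile normalization. With no filter 9 names were called lower, 2 of them late entries (miR-6830-5p and miR-5010-5p, each 1 scrambled read and a log2 difference of -4.49). Both had 0 reads in every X1-probe library, so their fits had no spread of their own. These 2 calls therefore give no support. With a replicate block on the description number (9, 10 or 12) there were 0 higher calls. Deviations of same-numbered ODD and EVEN libraries from their group means had correlations of -0.044, 0.072 and 0.019. Counting spread at few reads could hide a pairing, so these values cannot tell whether the numbers pair the libraries. For ODD against EVEN, the 1 lower call became 0 with the replicate block, pseudocount 1, no filter, at least 10 RPM in 6 libraries, quantile normalization or the total over 1 row per name, 2 with all hairpin rows and 3 without the trend, 1 of them the late entry miR-6756-3p. Leaving out single libraries gave 0 to 2 higher calls against scrambled (0 without EVEN replicate 2) and 0 to 1 lower calls for ODD against EVEN (0 without any of ODD replicates 1 and 3 and EVEN replicates 1 to 3), none a late entry. The causes were not tested.

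Under quantile normalization miR-7704 turned to 0.065 against scrambled. Leaving out single libraries, ODD against EVEN ran from -0.16 to 0.18 for miR-7704, -0.14 to 0.13 for miR-5096, -0.17 to 0.31 for miR-5701 and -0.23 to 1.47 for miR-6772-5p. Over all named late entries, these 4 included, 214 of 222 recalculations kept the sign and the side of the threshold. The exceptions were 7 turns of sign, all in these 4 names, and miR-6756-3p, which passed without the trend. The sign of miR-6772-5p for ODD against EVEN turned without ODD replicate 3.

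The summed share was 1.59% (X1 probes, ODD and EVEN alike) and 1.81% (scrambled) of the reads with 1 row per name. Of the RPM total, it was 1.17% (X1 probes), and without miR-7704 0.813% (X1 probes, ODD and EVEN) and 0.968% (scrambled). Without the 5 strongest, chosen after seeing the data, the share of the RPM total was 0.244%, 0.215%, 0.273% and 0.215% for X1 probes, ODD, EVEN and scrambled. Requiring 2 reads, 11.0 names were detected on average with X1 probes, 11.7 with ODD, 10.3 with EVEN and 6 with scrambled probes, and at the common depth 11.5 with ODD and 13.6 with EVEN probes. Planned count-model fits on recovered reads were not run. Since 1 read exceeded 10 RPM in each library, depth limits all names with few reads, miR-7977 among them.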
